A study of Mus musculus with 4 samples.

Results

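The lipid droplet coat and lipolysis genes described here are Plin2, Plin4, Plin5, Cidea, Cideb, Cidec, Pnpla2, Pnpla3, G0s2 and Lipe. They were chosen by name, as all probes whose gene name on the array equals one of these symbols, and they comprise 10 genes with 13 probes of the 39429 probes on the array. Total RNA from livers of male C57BL/6J mice, 8 to 12 weeks old, with no genetic change named, was compared on 4 arrays that each carried 1 fasted and 1 refed liver. Fasted mice had no food for 24 h, and refed mice went through the same 24 h fast and then ate for 2 h, so that both groups had been fasted and no mouse fed throughout was compared. Each array took 200 ng of RNA per liver, labelled with the dyes Cy5 and Cy3. The fasted liver carried Cy5 in replicates 1 and 2 and Cy3 in replicates 3 and 4.

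Hepatocytes store triglyceride in lipid droplets, whose surface is coated by perilipins and other proteins that control the access of lipases. Adipose triglyceride lipase, the product of Pnpla2, takes the initial step of triglyceride breakdown, with ABHD5 as its coactivator and G0S2 as its inhibitor. In fasting, fatty acids released by adipose tissue reach the liver, where they are oxidised, turned into ketone bodies or stored in droplets, and several perilipin genes are known targets of the fatty acid receptor PPARα.

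Values are given as the log2 ratio of fasted over refed liver on each array, so that a positive ratio means more signal in the fasted liver, and as the normalized log2 intensity of each liver, which can be compared between livers for 1 probe but not between probes. A gene was called when limma gave an adjusted p under 0.10 and the change was at least 1.5-fold, which is 0.585 on the log2 scale. Of the 10 genes, 8 were measured well above background in all 4 livers of at least 1 group and were tested, among 19719 probes in all. Their 10 probes are the ones tested below, and a gene with several is counted by its brightest. Tissue RNA was measured in bulk, so that fewer cells of a type and less RNA per cell cannot be told apart.

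All 4 arrays lay on 1 slide. Median spot intensity was 40 to 75 in Cy5 and 44 to 96 in Cy3, over local backgrounds of 25 to 35 and 20 to 33, no gene spot was saturated, and the 4 arrays limit the precision. All 6 hepatocyte markers were above background in all livers, and 1 of them, Tat, was called higher in the fasted liver. At an unadjusted p under 0.05, 3 of the 6 were higher (Tat, Cps1 and Apoa1) and 0 lower, and 2 passed the adjusted p at any fold. Alb averaged 0.10, Cyp2e1 0.26 by its brighter probe and Ttr -0.14, with limma adjusted p-values of 0.795, 0.513 and 0.522. The median ratio of the 6 was 0.29, the direction of the droplet genes called, and its part in the results was not tested. The refed liver of replicate 3 stood apart: the summed level of 12 pancreatic acinar markers was 40546 there and between 1045 and 1972 in the 7 other livers. Ratios and differences are therefore also given without replicate 3. Summed red cell markers ran from 19098 to 89444 in fasted and from 12484 to 27182 in refed livers, highest in the fasted livers of replicates 1 and 3, with 1 of 2 markers higher at an unadjusted p under 0.05, 0 called in limma and 1 called higher in SAM, and their part in the results was not tested.

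Of the 8 tested genes, 3 were called higher in the fasted liver, namely Plin2, Plin4 and Pnpla2, where 1.7% of all tested probes were called higher. None was called lower in limma, against 2.07% of all tested probes. The genes were chosen with earlier results of these data known, so that these shares describe them and test no excess. At an unadjusted p under 0.05 there were 4 higher and 0 lower, and the share of all tested probes at that limit was not counted. SAM, the permutation method that the study used, called 3 higher and 0 lower, against 373 and 439 of all 19719 tested probes. Without the fold limit 4 of the 8 passed the adjusted p in the higher direction, Plin5 being added, and 0 in the lower, against 4.72% and 6.11% of all tested probes. The same 4 genes had a ratio above 0 on all 4 arrays, which 13.6% of all tested probes had. Without replicate 3, and likewise without replicate 2, limma called 0 of the 8, with 4 higher and 0 lower at an unadjusted p under 0.05, so that no call held. Without replicate 1 it called Plin2, Plin4 and Plin5, and Pnpla2 was lost at an adjusted p of 0.119. Without replicate 4 it called Pnpla2 and Plin5, and Plin2 and Plin4 were lost at 0.144 and 0.192. With all 4 arrays, median centring ended the calls of Plin2 and Pnpla2, at adjusted p-values of 0.167 and 0.194, and testing dim probes as well ended that of Plin4, at 0.116. Normexp on all spots ended all 3, at 0.537 to 0.559. The median ratio over the 8 genes was 0.50, and over all tested probes it was -0.001.

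**Figure D1:**
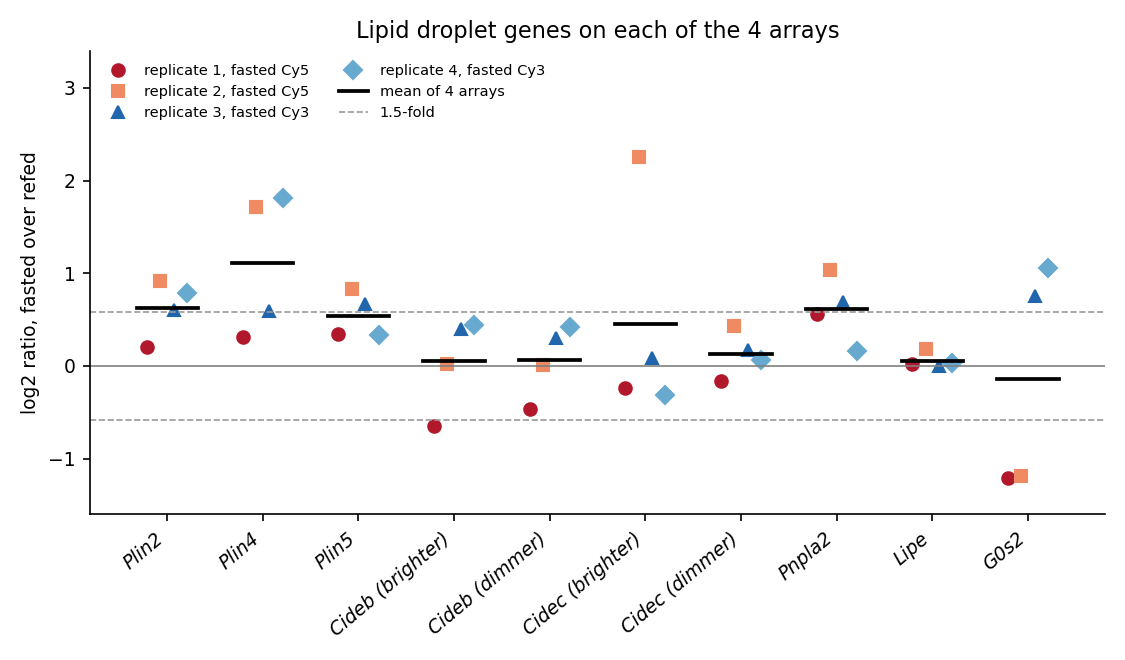
Log2 ratio of fasted over refed liver (y axis) for the 10 tested probes of 8 genes (x axis), with 1 symbol per array, red and orange where the fasted liver carried Cy5 and blue where it carried Cy3, black bars for the mean and dashed lines at 1.5-fold. Plin2, Plin4, Plin5 and Pnpla2 lie above 0 on every array, a single array carries the brighter Cidec probe, and the sign of G0s2 changes with the dye.

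The perilipins are the coat proteins of the droplet, and Plin2 is the perilipin most closely tied to droplet abundance in hepatocytes. The Plin2 probe, on chromosome 4 at 86302847 to 86302906 of mm9 on the minus strand, was bright, with raw intensities of 9846 to 28958 over a background of 21 to 35. Its levels were 14.02, 14.38, 13.86 and 14.44 in the fasted livers of replicates 1 to 4, and 13.82, 13.46, 13.26 and 13.65 in the refed livers. Every fasted liver lay above every refed liver, although the lowest fasted and the highest refed liver differed by little. The ratios were 0.21, 0.92, 0.60 and 0.79, with a mean of 0.63 ± 0.31 (SD, n = 4 arrays) and a 95% interval of 0.32 to 0.93. Plin2 was thus 1.55-fold higher in the fasted liver, with a limma adjusted p of 0.0431. Without replicate 3 the ratio was 0.64 and the adjusted p 0.15, which is no longer called.

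Plin4, a perilipin with a long amphipathic repeat that is best known from adipose tissue and muscle, had the largest mean ratio of the 10 tested probes. Its probe lies on chromosome 17 at 56240055 to 56240114 of mm9 on the minus strand. Its levels were 9.49, 10.51, 8.97 and 10.32 in fasted and 9.18, 8.80, 8.38 and 8.51 in refed livers. The groups overlapped, since the fasted liver of replicate 3 lay below the refed liver of replicate 1, but within each array the fasted liver was higher. The ratios of 0.31, 1.71, 0.59 and 1.82 fell into 2 low and 2 high arrays, each with 1 array of either dye orientation. The markers of Kupffer cells and red cells split the arrays in the same way, the other way up. Their mean ratios in replicates 1 to 4 were 0.51, -0.25, 0.57 and -0.22 over 5 Kupffer cell markers and 1.42, -0.27, 1.803 and 0.19 over 2 red cell markers. The ratios of Plin2 were likewise lower in replicates 1 and 3 than in replicates 2 and 4. The part of these cells in the ratios of Plin4 and Plin2 was not tested. The mean of Plin4 was 1.11 ± 0.77 (SD, n = 4), a 2.15-fold rise with a limma adjusted p of 0.0707. Without replicate 3 the ratio was 1.28 and the adjusted p 0.133.

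Plin5, the perilipin of oxidative tissues that brings droplets close to mitochondria and binds both ATGL and ABHD5, is the neighbour of Plin4 on chromosome 17, with 0 genes of the RefSeq table (GRCm38.p6) between them. The 2 probes start 10970 bases apart in mm9, and that of Plin5 spans 56251025 to 56251084 on the minus strand. The levels of Plin5 were 12.85, 13.30, 12.82 and 12.80 in fasted and 12.51, 12.47, 12.15 and 12.46 in refed livers. All 4 fasted livers lay above all 4 refed livers. The ratios were 0.34, 0.83, 0.67 and 0.33, with a mean of 0.54 ± 0.25 (SD, n = 4), or 1.46-fold. Plin5 had the lowest limma adjusted p of the 8 genes, 0.0416, and was not called because its change lay under 1.5-fold. Without replicate 3 its ratio was 0.50 and its adjusted p 0.166.

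Differences between members were tested on the ratios within each array for 5 pairs with an exact sign-flip test, two-sided, whose smallest p with 4 arrays is 0.125, so that no pair could reach 0.05. The ratio of Plin2 exceeded that of Plin5 by 0.08 ± 0.27 (SD, n = 4; exact p = 0.75, adjusted over the 5 pairs 0.75), or 0.14 without replicate 3 and -0.04 without replicate 4. The ratio of Plin4 exceeded that of Plin2 by 0.48 ± 0.51 (exact p = 0.25, adjusted 0.625), with 3 of 4 arrays in that direction and a difference near 0 in replicate 3, without which it was 0.64. Without replicate 4 it was 0.30.

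**Figure D2:**
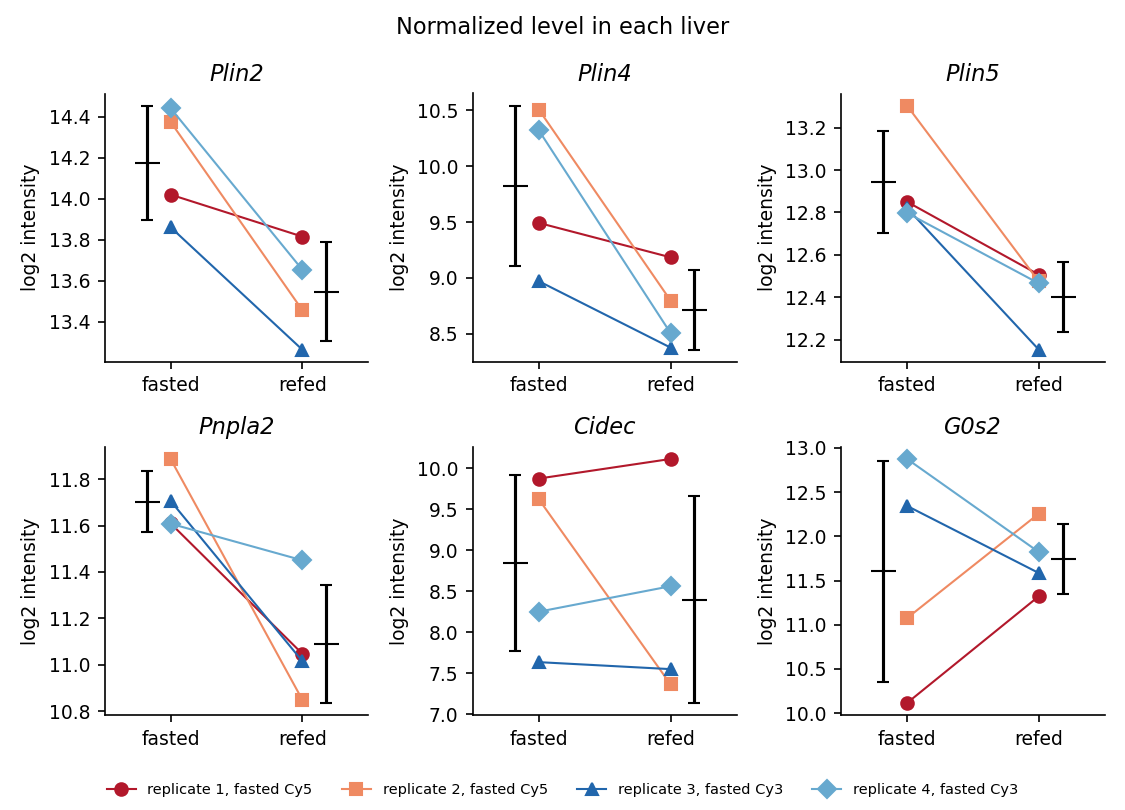
Normalized log2 intensity (y axis, scaled for each gene) in the fasted and the refed liver (x axis) for 6 genes, where a line joins the livers of 1 array and black bars give the mean and SD of 4 livers. For Plin2, Plin5 and Pnpla2 the fasted livers all lie above the refed livers, whereas those of Plin4, Cidec and G0s2 overlap.

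Since the study asked how CREB, the factor activated by the fasting hormone glucagon through cAMP, acts at liver genes, the RefSeq promoters (GRCm38.p6, 250 bases before to 50 after each start) were searched for 4 letter strings on both strands. A promoter was found for 9 of the 10 genes, 12 promoters in all, among 32851 in the table. The strings were the full cAMP response element TGACGTCA, its shorter core TGACG, which lies within it, the nuclear receptor core AGGTCA and the FOXA core TGTTTAC. The core AGGTCA stood in 3 of the 12 promoters, those of Plin2 and both of Plin5, and in 16.3% of all promoters. The stretches of Plin2 and Plin5 that hold it are shown because both genes had adjusted p-values under 0.05, with the match in capitals, which in Plin2 is on the opposite strand. They run from 245 to 186 bases before the start of Plin2 (chr4:86670245-86670304, minus strand) and from 197 to 138 bases before that of Plin5 (chr17:56117686-56117745, minus strand).
Plin2: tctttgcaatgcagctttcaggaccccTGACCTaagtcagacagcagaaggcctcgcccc
Plin5: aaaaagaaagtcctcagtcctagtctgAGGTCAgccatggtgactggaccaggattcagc

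TGACGTCA stood in 1 of the 12 promoters, that of Pnpla3, and in 1.79% of all promoters. TGACG stood in 2 of the 12, those of Pnpla3 and G0s2, and in 20.8% of all. TGTTTAC stood in 1, a promoter of Lipe, and in 3.65% of all. The promoters of Plin4, Cideb, Cidec and Pnpla2 held none of the 4 strings in these windows. The element of Pnpla3 is shown, in capitals, because its gene was the least detected of the 10. It begins 46 bases before the start, and the stretch runs from 72 to 13 bases before it (chr15:84167744-84167803, plus strand).
Pnpla3: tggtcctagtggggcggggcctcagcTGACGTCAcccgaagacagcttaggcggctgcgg

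The CIDE proteins sit at contacts between droplets, where Cidec drives lipid transfer from small to large droplets, and Cideb also takes part in the lipidation of very low density lipoprotein. Cideb, the CIDE gene of normal hepatocytes, was measured by 2 probes on chromosome 14, at 56372942 to 56373001 and at 56373658 to 56373717 of mm9 on the minus strand. The brighter probe, with raw intensities of 9519 to 19429, read 13.94, 14.06, 14.04 and 13.84 in fasted livers and 14.59, 14.04, 13.65 and 13.40 in refed livers. The fasted livers were close together, with an SD of 0.10, whereas the refed livers spread on both sides of them, with an SD of 0.52. The ratios of -0.65, 0.02, 0.40 and 0.44 gave a mean of 0.05 ± 0.50 (SD, n = 4; limma adjusted p = 0.916), with a 95% interval of -0.40 to 0.50. The dimmer probe gave -0.47, 0.01, 0.30 and 0.42, with a mean of 0.07 ± 0.39 (adjusted p = 0.863). Both Cideb probes thus had the same order of arrays, and neither was called. Without replicate 3 they averaged -0.063 and -0.011, without replicate 4 -0.078 and -0.051, and without replicate 1 0.28 and 0.24.

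Cidec, which fatty liver is known to express at a far higher level than lean liver, was measured by 2 probes on chromosome 6 that disagreed in size. The brighter lies at 113374630 to 113374689 of mm9 on the minus strand. It read 9.87, 9.62, 7.64 and 8.25 in fasted and 10.11, 7.37, 7.55 and 8.56 in refed livers. Both groups spanned over 2 log2 units and overlapped, and both livers of replicate 1 were high. The ratios were -0.24, 2.26, 0.09 and -0.31, with a mean of 0.45 ± 1.22 (SD, n = 4; limma adjusted p = 0.62) and a 95% interval of -0.58 to 1.47. Replicate 2 decided the sign, and without it the ratio was -0.15, whereas without replicates 1, 3 and 4 it was 0.68, 0.57 and 0.70. The dimmer probe, at 113378116 to 113378175, had raw intensities of 49 to 101 over a background of 20.5 to 36.5 and was above background in 4 fasted and 3 refed livers. Its ratios of -0.17, 0.43, 0.17 and 0.06 had a mean of 0.12 ± 0.25 (adjusted p = 0.587), and replicate 2 was again the highest. Without replicates 1 to 4 in turn this probe gave 0.22, 0.022, 0.11 and 0.14. The dimmer probe is shown with capitals on the only 1 of its 3 reading frames that is free of stop codons, 19 codons from base 3 to base 59.
Cidec: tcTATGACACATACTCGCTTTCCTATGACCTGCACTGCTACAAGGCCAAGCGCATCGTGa

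Cidea, the CIDE gene of brown adipose tissue, was not tested. Its single probe, on chromosome 18 at 67527351 to 67527410 of mm9, was above background in 2 fasted livers and 1 refed liver, with raw intensities of 29.5 to 96. The ratio of Cidec exceeded that of Cideb by 0.40 ± 1.32 (SD, n = 4; exact p = 0.75, adjusted over the 5 pairs 0.75), with 2 arrays in each direction. Without replicate 2 the difference turned to -0.22, and without replicates 3 and 4 it was 0.63 and 0.78.

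Among the lipases, Pnpla2 rose and Lipe did not pass. The Pnpla2 probe, on chromosome 7 at 148645928 to 148645987 of mm9 on the plus strand, read 11.61, 11.89, 11.71 and 11.61 in fasted livers and 11.05, 10.85, 11.02 and 11.45 in refed livers. All 4 fasted livers lay above all 4 refed livers, and the fasted livers, with an SD of 0.13, were closer together than the refed, with an SD of 0.25. The ratios were 0.56, 1.04, 0.69 and 0.16, the smallest in replicate 4, with a mean of 0.61 ± 0.36 (SD, n = 4) and a 95% interval of 0.27 to 0.95. Pnpla2 was 1.53-fold higher in the fasted liver, with a limma adjusted p of 0.062. Without replicate 3 the ratio was 0.59 and the adjusted p 0.207. With Plin2 and Plin5 it made 3 of the 8 genes whose fasted livers all lay above the refed livers, which 5.81% of all tested probes did, while 0 of the 8 had all fasted livers below, as 7.79% of all tested probes had.

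Lipe encodes hormone-sensitive lipase, which cleaves diglyceride and cholesteryl ester and is the target of protein kinase A in adipose tissue. Its probe, on chromosome 7 at 26165828 to 26165887 of mm9, was close to background, at raw intensities of 34.5 to 97 over 18 to 35.5, and above background in 3 fasted and 4 refed livers. The ratios of 0.02, 0.18, 0.00 and 0.04 had a mean of 0.06 ± 0.08 (SD, n = 4; limma adjusted p = 0.714) and a 95% interval of -0.12 to 0.23. Without replicate 2 the ratio was 0.019 and without replicate 3 it was 0.080. The ratio of Lipe lay below that of Pnpla2 on all 4 arrays, with a difference of -0.55 ± 0.32 (exact p = 0.125, adjusted over the 5 pairs 0.625), the smallest p that 4 arrays allow, and was -0.51 without replicate 3. An offset added in the background correction draws the ratios of probes this dim towards 0. The Lipe ratio was 0.10 without background correction, 0.18 with plain subtraction and 0.17 with the scanner's processed signals. It was called under none of these.

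Pnpla3, the patatin paralogue of Pnpla2 whose expression is known to follow feeding and SREBP-1c, was not above background in any liver. Its 2 probes, on chromosome 15 at 84019823 to 84019882 and at 84016440 to 84016499 of mm9, had raw intensities of 31 to 80 and 25 to 58 over backgrounds of 19 to 35 and 19 to 32. No fold is given for it, and its difference from Pnpla2, which would have been a further pair, could not be measured.

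G0s2, which binds and inhibits ATGL, gave ratios whose sign followed the dye orientation. The G0s2 probe lies on chromosome 1 at 195098925 to 195098984 of mm9 on the minus strand. It is shown because its readings turn on it, with its first ATG in capitals, at bases 17 to 19, which opens a frame of 14 codons without a stop, the ATG included, within the probe.
G0s2: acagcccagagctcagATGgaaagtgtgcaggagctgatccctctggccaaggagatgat

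Its levels were 10.11, 11.07, 12.34 and 12.88 in fasted livers and 11.32, 12.26, 11.58 and 11.82 in refed livers. The 2 fasted livers in Cy5 were the lowest of the 8 and the 2 in Cy3 the highest, with the refed livers between them. The ratios were -1.21, -1.18, 0.76 and 1.05, with a mean of -0.14 ± 1.22 (SD, n = 4; limma adjusted p = 0.896) and a 95% interval of -1.17 to 0.88. Read as Cy5 over Cy3, the same ratios were -1.21, -1.18, -0.76 and -1.05, so that the Cy5 channel was the lower on every array. With the dye as a second term in limma, the dye effect was -1.05 with an adjusted p of 0.00327, and the ratio of fasted over refed, unchanged at -0.14, had an adjusted p of 0.218. A dye effect passed an adjusted p of 0.10 for 1 of the 8 genes, G0s2, and for 14.8% of all tested probes. One at least as large as that of G0s2 was seen in 24 of 19719 tested probes, 0.122%. The ratios deposited for G0s2 by the authors followed the dye in the same way, at -1.24, -1.24, 0.80 and 1.09. No direction between fasted and refed liver is therefore given for G0s2.

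The difference in ratio of G0s2 minus Pnpla2 had no single direction, with a mean of -0.76 ± 1.48 (SD, n = 4; exact p = 0.5, adjusted over the 5 pairs 0.75), with differences of -1.77 and -2.22 in replicates 1 and 2 and 0.07 and 0.90 in replicates 3 and 4. Leaving out replicates 1 to 4 in turn moved it to -0.42, -0.27, -1.03 and -1.31. The ratio of G0s2 itself turned to 0.21 and 0.20 without replicates 1 and 2, and was -0.45 and -0.54 without replicates 3 and 4. The 4 genes past the adjusted p were positive in both orientations. Plin2 averaged 0.56 where the fasted liver carried Cy5 and 0.69 where it carried Cy3, Plin4 1.01 and 1.21, Plin5 0.59 and 0.50, and Pnpla2 0.80 and 0.42. With the dye term in the model the adjusted p-values of these 4 were 0.0198, 0.0429, 0.0184 and 0.0198. The brighter Cideb probe, at -0.31 and 0.42, had a dye effect of -0.37 with an adjusted p of 0.106.

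**Figure D3:**
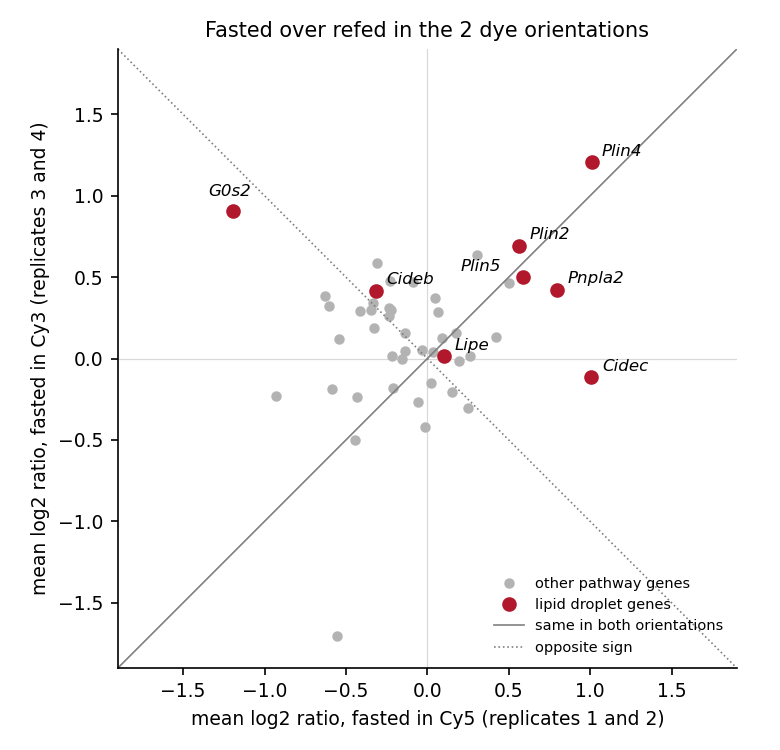
Mean log2 ratio of fasted over refed liver where the fasted liver carried Cy5 (x axis) against that where it carried Cy3 (y axis), for the 8 tested genes in red and the other pathway genes in grey. Plin2, Plin4, Plin5 and Pnpla2 lie above 0 on both axes, and G0s2, at -1.20 and 0.91, lies near the dotted line of opposite sign.

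Among 43 other genes of droplets and neutral lipid hydrolysis on the array, 39 were tested. Of these, 0 were called higher and 1 was called lower in the fasted liver by limma as well as by SAM. Limma called 1.7% of all tested probes higher and 2.07% lower. At an unadjusted p under 0.05, 2 of the 39 were higher and 5 lower, and the share of all tested probes at that limit was not counted. Without the fold limit 2 passed the adjusted p as higher and 3 as lower, shares close to the 4.72% and 6.11% of all tested probes. The median ratio over the 39 genes was -0.02. A dye effect passed the adjusted p for 11 of the 39, and for 14.8% of all tested probes.

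The gene called lower was Hspa8, the constitutive cytosolic chaperone HSC70, which also takes perilipins to the lysosome in chaperone-mediated autophagy. All 4 fasted livers lay below all 4 refed livers for each of its 3 probes. The ratios of its brightest probe were -0.33, -0.78, -1.55 and -1.86, with a mean of -1.13 ± 0.70 (SD, n = 4; limma adjusted p = 0.0547), and this probe also had a dye effect of 0.57 with an adjusted p of 0.0388. The other 2 probes had means of -1.22 and -1.25 and adjusted p-values of 0.00838 and 0.00993. By its brightest probe Hspa8 was not called without replicate 2, 3 or 4, with ratios of -1.25, -0.99 and -0.89 and adjusted p-values of 0.125, 0.189 and 0.138. Its other 2 probes were called with any 1 replicate left out, with ratios of -1.14 and -1.22 without replicate 3.

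Abhd5, the coactivator of the lipase encoded by Pnpla2, was lower in the fasted liver under the fold limit, opposite to Pnpla2. Its brightest probe gave ratios of -0.51, -0.36, -0.31 and -0.17, with a mean of -0.33 ± 0.14 (SD, n = 4; limma adjusted p = 0.07), a level of 0.79 times the refed one. The other 2 probes averaged -0.43 (adjusted p = 0.0342) and -0.42 (adjusted p = 0.0485). For all 3 the fasted livers lay below the refed livers without overlap. Without replicate 3 the 3 averaged -0.34, -0.43 and -0.41, with adjusted p-values of 0.223, 0.14 and 0.185, and the brightest probe did not pass with any 1 replicate left out. The difference between Abhd5 and Pnpla2 was not tested.

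Pnpla6, the neuropathy target esterase that hydrolyses lysophospholipid, was lower by a similar amount on every array, at -0.39, -0.50, -0.54 and -0.46 (mean -0.47 ± 0.06, SD, n = 4; limma adjusted p = 0.0198). Acsl1, the acyl-CoA synthetase that activates fatty acids for oxidation and esterification, was higher at 0.47, 0.54, 0.42 and 0.51 (mean 0.48 ± 0.05; adjusted p = 0.0183), or 1.40-fold. Ddhd2, a triglyceride lipase best known from neurons, was higher at 0.05, 0.56, 0.69 and 0.57 (mean 0.47 ± 0.28; adjusted p = 0.0747). The groups did not overlap for any of these 3. Over the whole list, 6 of the 39 genes had no overlap by their brightest probe, in either direction. All fasted livers lay above the refed livers in 5.81% and below them in 7.79% of all tested probes. The second probes of Acsl1 and Ddhd2 averaged 0.46 ± 0.49 (adjusted p = 0.209) and 0.24 ± 0.14 (adjusted p = 0.155) and did not pass. With the dye term in limma both passed, at 0.00648 and 0.0459, and the second probe of Acsl1 had a dye effect of -0.42 (adjusted p = 0.0296). Without replicate 3 Acsl1 was 0.51 (adjusted p = 0.0866), while Pnpla6 at -0.45 (0.108) and Ddhd2 at 0.40 (0.254) did not pass. Ddhd2 did not pass without replicate 2 or 4 either, at 0.211 and 0.218, and without replicate 1 it was 0.61 (0.0281) and called higher. The second probes of Acsl1 and Ddhd2 were 0.34 and 0.20 without replicate 3, and 0.30 and 0.21 without replicate 4.

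The remaining perilipins and lipases did not pass. Plin1, the perilipin of adipocytes, was above background in no liver. Plin3, the ubiquitous perilipin that moves from cytosol to droplet, gave 0.09, -0.12, -0.23 and -0.61 (mean -0.22 ± 0.29; adjusted p = 0.374), or -0.21 without replicate 3 and -0.086 without replicate 4. Mgll, which cleaves monoglyceride, averaged -0.10 ± 0.47 (adjusted p = 0.817), and Lipa, the acid lipase of lysosomes, averaged 0.12 ± 0.62 (adjusted p = 0.819). With 1 replicate left out in turn, from 1 to 4, Mgll gave 0.12, -0.24, -0.089 and -0.18 and Lipa gave 0.34, 0.14, 0.17 and -0.16, so that the sign of each rested on a single array.

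**Figure D4:**
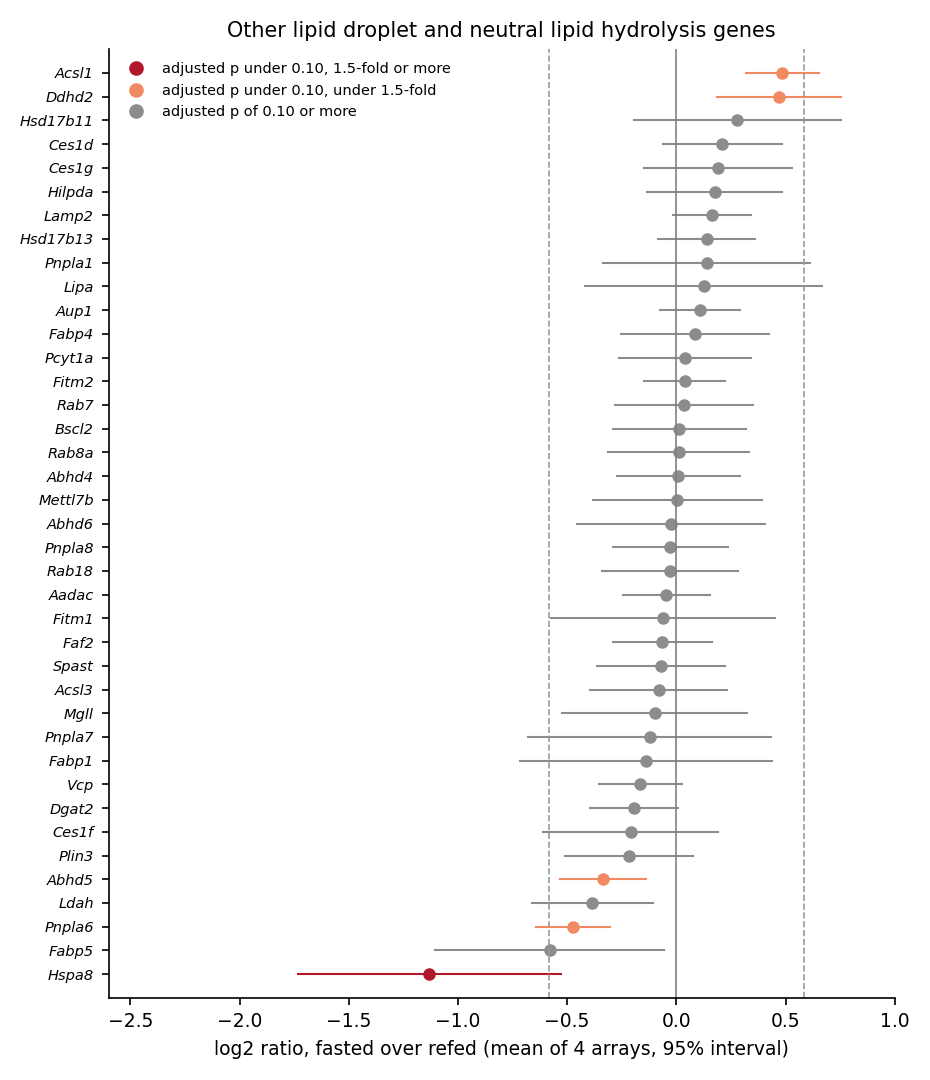
Mean log2 ratio of fasted over refed liver with its 95% interval (x axis) for the brightest probe of each of the 39 tested pathway genes (y axis), in red where called, in orange where the adjusted p was under 0.10 but the change under 1.5-fold, and grey otherwise. Hspa8 is the single red point, at -1.13, and Acsl1 at 0.48 and Pnpla6 at -0.47 have the narrowest intervals among the coloured points.

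Plin1, Plin4, Cidea, Cidec, Pnpla2 and Lipe are also abundant in adipose tissue. Of 8 adipose markers, 2 were tested, Cfd and Aqp7, and 0 were called in limma, at an unadjusted p under 0.05 or in SAM. Of the 8, Cfd and Aqp7 were above background in all livers, Lep, Plin1 and Ucp1 in none, and Adipoq in 1, a refed one. The summed level of the 8, which include the member Cidea and the pathway gene Plin1, was 619 to 724 in fasted livers and 639 to 810 in refed livers. The 810 was the refed liver of replicate 3, the one with pancreatic acinar markers, where the mean ratio of the 8 was -0.31 and that of Cfd -1.37, and the other refed livers ran up to 681. Of 6 hepatic stellate cell markers 5 were tested and 0 called, and of 5 Kupffer cell markers 5 were tested and 0 called in limma and in SAM. Summed levels were 2526 to 3102 in fasted and 2545 to 2784 in refed livers for stellate cells, and 8178 to 12450 and 5582 to 10834 for Kupffer cells. At an unadjusted p under 0.05 there was 1 stellate cell marker, lower, and 0 Kupffer cell markers. The part of these cells in the results was not tested.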

How the data were processed

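RNA of 4 fasted and 4 refed livers was hybridised to 4 whole mouse genome arrays in a dye swap, and the authors deposited the scanner's spot intensities with 0 or 1 flags, made with Feature Extraction (10.10.1.1 in the file headers), and a table of log2 ratios normalized by print tip loess in limma. No other columns of per-sample values were present (0).

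Here median intensities were corrected with normexp (offset 50), without spots whose local background exceeded 3 times the array median. Control and outlier spots were left out, ratios were normalized by loess, turned to fasted over refed and averaged per probe. Levels were quantile-normalized on mean intensity (Aquantile). Probes well above background on all 4 arrays in at least 1 group were kept. limma 3.58.1 (R 4.3.3; lmFit, eBayes, no dye term) was used with the p-values of all 19719 kept probes adjusted by Benjamini-Hochberg, an adjusted p under 0.10 and 1.5-fold. It was tested on simulated data whose noise was independent between arrays. In the data, ratios correlated at 0.66 and 0.75 between arrays of the same dye orientation and at 0.22 to 0.40 between orientations, a structure that the simulation lacked. Of 6 pairs of members set for comparison, that of Pnpla3, which was not measurable, was left out. Adjusted over all 6, the p of Lipe against Pnpla2 was 0.375 and that of Plin4 against Plin2 0.5. Each replicate is 1 fasted and 1 refed mouse, and p-values measure the spread over 4 arrays. The rows of the deposited log2 ratios were matched by row number (r from 0.975 to 0.992 over kept probes), and served as an alternative. Over all rows, against ratios without correction or normalization, r was 0.34, 0.96, 0.93 and 0.86 in replicates 1 to 4.

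Named were all members and all their probes, pathway genes with an adjusted p under 0.10, and Plin1, Plin3, Abhd5, Mgll and Lipa. Members and lists were chosen with earlier results of these data known. The strings searched in promoters, the sequences shown and the rank of the G0s2 dye effect were chosen after values were seen. Probe coordinates are those of the array's mm9 annotation, and the exon or UTR they fall in is not given in the sources used here. Alternatives covered background correction, source of values, normalization, filters, flags, dye term, separate channels, SAM, thresholds, the probe that stands for a gene and leave-one-out fits.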

Additional observations from a re-analysis of the deposited data

Results flagged for a closer look

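Of 30 sets of 4 values checked (ratios, fasted levels and refed levels of the 10 tested probes), 3 held a value far from the other 3, with a gap above the 95% limit of Dixon's test, which chance exceeds in about 1 of 20 sets. The fasted liver of replicate 2 stood above the others for Plin5, at a log2 level of 13.30 (gap over range 0.896). The refed liver of replicate 3, the liver with pancreatic acinar markers, stood below the others for Plin5, at 12.15 (0.884). The ratio of the brighter Cidec probe in replicate 2 was 2.255 (0.846), and its other probe was also highest in that replicate.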

How the results depend on the processing

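Of 21 alternatives, 12, 12, 13 and 13 moved the ratios of Plin2, Plin4, Plin5 and Pnpla2 by more than 1e-05, and the others act on the test, the call or other probes. The directions held under these 12, 12, 13 and 13, with ratios of 0.47 to 0.77, 0.59 to 1.37, 0.40 to 0.61 and 0.47 to 0.76. They were called under 16, 15, 3 and 15 of the 21, and the calls of members lower in fasted liver stayed at 0.

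Normexp on all spots, where single spots with extreme background entered the fit, left 5 probes called higher, 16 lower, 0 members, 0 pathway genes lower and 0 dye effects among members, and the Plin4 minus Plin2 difference became -0.0205. Median centring called 230 higher and 635 lower, so that 26.6% of calls were higher in place of 45%. It left 1 member called higher (Plin4), 2 pathway genes lower and 1 member without overlap, and put Cideb at -0.10. Plain subtraction gave 549 and 713 calls and 1 pathway gene higher. The scanner's processed signals gave 685 and 904, 1 pathway gene higher, Cideb at -0.0078 and a Pnpla3 minus Pnpla2 difference of 0.52, where Pnpla3 has no measurable signal. The deposited ratios gave 1 pathway gene higher and 2 members with a dye effect. With no fold limit 931 and 1205 probes and 2 and 3 pathway genes passed. With no filter on dim probes 2 members were called, Plin2 and Pnpla2. At an adjusted p under 0.05, 1 member (Plin2) and 0 pathway genes lower remained. The cause of these changes was not tested.

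Leaving out 1 replicate in turn gave 208 to 413 probes higher, 256 to 525 lower, 0 to 3 members higher, 0 to 1 pathway genes higher, 0 to 1 lower, 3 to 5 members without overlap and 1 to 2 with a dye effect. The pathway gene called lower without replicate 4 was not Hspa8, whose brightest probe was not called there. With 3 arrays the dyes are unbalanced. No member was called in limma without replicate 2 or without replicate 3, Plin2, Plin4 and Plin5 were without replicate 1, and Pnpla2 and Plin5 without replicate 4. Ratios ran from -0.54 to 0.21 for G0s2 (0.21 and 0.20 without replicates 1 and 2), -0.15 to 0.70 for Cidec and -0.0777 to 0.28 for Cideb (-0.0627 without replicate 3). Differences ran from -0.22 to 0.78 for Cidec minus Cideb, -0.0395 to 0.16 for Plin2 minus Plin5, 0.30 to 0.64 for Plin4 minus Plin2, -1.31 to -0.27 for G0s2 minus Pnpla2 and -0.70 to -0.45 for Lipe minus Pnpla2.

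With 2 and 5 times as the limit on local background, chosen after seeing the data, 3 members were called. Labels give replicate numbers to arrays only. As the array already pairs its livers, 8 separate channels with no replicate block were the unpaired fit, which called 322 higher, 394 lower and 3 members. Signal over background limits Lipe, Pnpla3, Cidea and the dimmer Cidec probe.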
